A study of Homo sapiens with 8 samples.

Results

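This section covers 8 genes of the microtubule and cilium machinery that had been noticed in HT29 clones: TUBA1A, TUBB2A, TUBB3, TUBB6, TUBG1, TPPP3, FOXJ1 and SEPTIN6. They were chosen by symbol, as every probe set annotated to 1 of these genes alone, which gave 12 of the 22215 non-control probe sets and 8 of 11963 genes. The choice was made with values of these arrays known, above all the values of the clones against parental HT29, so that those values are a description and carry no test. A further 2 probe sets, annotated to one of the 8 genes together with another gene, were not used.

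Transcripts were measured on 8 Affymetrix arrays. HT29 is a long-used cell line from a human colorectal tumour, and Colo357 one from a human pancreatic tumour. The HT29 clones carrying 2 vectors with an shRNA against CD24, a glycosylated surface protein, had 2 arrays, titled G and E. The other groups had 1 array each: an HT29 clone with 1 such vector, an HT29 clone with a vector for an shRNA against GFP, Colo357 and HT29 after 72 h of the SWA11 anti-CD24 monoclonal antibody at a dilution of 1 to 40, untreated Colo357, and untreated parental HT29. Each clone is a single clonal line, the labels name no vector for parental HT29, and a control antibody was not analysed here. The labels do not say whether the samples came from separate cultures, so the spread between them may be technical.

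Microtubules are polymers of α- and β-tubulin pairs, and humans have several genes for each, with different tissue patterns. TUBA1A encodes an α-tubulin abundant in the developing nervous system. TUBB2A, TUBB3 and TUBB6 encode β-tubulins, of which TUBB3 is widely used as a neuronal marker and is also found in carcinomas. γ-Tubulin, encoded by TUBG1, sits in the ring complex from which microtubules grow. TPPP3 binds and bundles microtubules, FOXJ1 is the transcription factor that drives the programme of motile cilia, and SEPTIN6 is a filament-forming GTP-binding protein that associates with microtubules and the cell cortex. Colonic epithelium is not a multiciliated tissue.

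The windows upstream of TUBA1A and SEPTIN6, which were high in every clone, and of TUBB2A, which was high after the antibody, are shown because these genes carry most of what follows. Each line is the 250 bases before the gene's annotated start in RefSeq (GRCh38.p14), 5′ to 3′ on the gene's strand, which is the minus strand for all 3. They lie at chr12:49189081-49189330 for TUBA1A, chrX:119693169-119693418 for SEPTIN6 and chr6:3157545-3157794 for TUBB2A. Capitals mark matches on either strand to 1 of 5 motifs: the TATA box as TATANA, the CCAAT box, the GC box as GGGCGG, the letters GTTGCC bound by RFX factors, which regulate ciliary genes, and the cAMP response element as TGACGTCA. These motifs were chosen after the sequences had been seen.
TUBA1A: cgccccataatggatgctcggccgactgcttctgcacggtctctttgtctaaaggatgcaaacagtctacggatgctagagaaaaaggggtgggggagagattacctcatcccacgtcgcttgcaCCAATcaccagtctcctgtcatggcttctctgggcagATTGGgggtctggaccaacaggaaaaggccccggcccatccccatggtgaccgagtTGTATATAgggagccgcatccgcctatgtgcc
SEPTIN6: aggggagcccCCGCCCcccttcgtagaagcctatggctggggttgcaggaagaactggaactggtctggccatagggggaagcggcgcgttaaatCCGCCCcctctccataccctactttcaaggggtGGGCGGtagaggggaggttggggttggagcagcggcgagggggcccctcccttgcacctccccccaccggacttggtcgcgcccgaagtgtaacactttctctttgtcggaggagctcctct
TUBB2A: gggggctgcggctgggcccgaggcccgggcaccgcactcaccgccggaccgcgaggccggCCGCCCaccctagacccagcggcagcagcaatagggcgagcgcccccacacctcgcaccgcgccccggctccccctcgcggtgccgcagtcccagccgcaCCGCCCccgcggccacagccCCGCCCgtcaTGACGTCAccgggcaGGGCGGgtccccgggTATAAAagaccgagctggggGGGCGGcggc

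TUBA1A held 2 CCAAT matches, beginning at positions -125 and -88 counted back from the start, and overlapping TATANA matches on both strands beginning at -32 and -30. SEPTIN6 held 3 GGGCGG matches and no other motif. TUBB2A held 5 GGGCGG matches, a TATANA match beginning at -30 and the palindrome TGACGTCA beginning at -60. Among 35116 windows of the same length, 32.0% held CCAAT, 17.7% TATANA, 42.6% GGGCGG, 10.2% GTTGCC and 1.65% TGACGTCA. GTTGCC was in none of the 3 windows. The matches describe letters only. Of the 8 genes, 6 had a window in the table. On the same build TUBB2A lies at 3153666 to 3157544 on chromosome 6, TUBB3 at 89921925 to 89936097 and TPPP3 at 67389809 to 67393498 on chromosome 16, TUBB6 at 12307669 to 12329826 on chromosome 18, and TUBG1 at 42609683 to 42615238 and FOXJ1 at 76136333 to 76141245 on chromosome 17.

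The values are MAS5 intensities on a linear scale, and all differences below are of log2(intensity + 10), which understates the change of dim genes. Median intensity ranged from 32.4 to 63.1 over the arrays. Clone G stood apart in its RNA controls: its 18S 3′ probe set read 434.8, against 14.7 to 48.0 on the other arrays, and its ACTB 3′ to 5′ ratio was 1.77, against 1.06 to 1.17. Over all probe sets clone G correlated most with the 1-vector clone (r = 0.961) and clone E most with the GFP clone (r = 0.960). For clone G and the GFP clone r was 0.896. This split cuts across the CD24 and GFP shRNA groups. CD24, the targeted gene, read 171.7, 595.5 and 558.0 on its brightest probe set in clones G and E and the 1-vector clone, against 7362.5 in the GFP clone and 6425.1 in parental HT29. The other 5 CD24 probe sets were also lower in all 3 CD24 shRNA clones than in either control, least so on one that read 1062.0, 594.4 and 596.8 in clones G and E and the 1-vector clone, against 2310.8 in the GFP clone and 2104.8 in parental HT29. Among 7 colon epithelial markers, LGALS4 (4581.5), KRT20 (1117.1) and VIL1 (439.3) lay above the array median in parental HT29, while CDX1, CDX2, GPA33 and CDH17 did not (3.2 to 26.4). The summed intensity of the 7 markers was 3488.7 to 4986.7 in the clones and 6180.6 in parental HT29, with 1 to 3 of them above the array median in the clones and 3 in parental HT29. LGALS4 was lower in the clones (32.5 to 682.2) than in parental HT29, and KRT20 was higher (2761.4 to 4799.8). Of 4 pancreatic ductal markers with a value, 3 were higher in untreated Colo357 than in parental HT29. These were KRT7 (5468.1 and 38.8), KRT19 (7691.6 and 3780.2) and MUC1 (1814.7 and 55.6), while SOX9 was lower (394.4 and 1362.4). Of the 3 colon markers above the array median in parental HT29, VIL1 was higher in Colo357 (1123.5), and LGALS4 (139.6) and KRT20 (6.7) were lower.

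TUBA1A was the gene with the largest difference between the 4 clones and parental HT29. It read 7246.9 in clone G, 3648.7 in clone E, 3928.1 in the 1-vector clone and 973.0 in the GFP clone, against 30.6 in parental HT29. All 4 clones lay far above the parental array, and the antibody-treated HT29 array was as low, at 22.2. The mean log2 value of the clones was 11.64 ± 1.21 (SD, n = 4), against 5.34 in parental HT29, a difference of 6.29 or 78.4-fold, which ranked 1 among 6756 genes. In parental HT29 the probe set stood at the 44.9th percentile of its array, and in the clones between the 91.9th and the 99.0th.

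The clones also differed among themselves in TUBA1A. The 3 CD24 shRNA clones lay above the GFP clone, by 2.26 in log2 or 4.79-fold on average, while the 2-vector clones were 0.99 apart. Without clone G the mean difference of the remaining clones from parental HT29 was 5.90. TUBA1A, at 49184795 to 49189080 on chromosome 12, has 1 probe set, of the _s_at type, which can match several transcripts, so its reading cannot be checked on another.

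TPPP3, the microtubule-bundling protein, had a similar split between clones and parent but another order among the clones. It read 709.2 in clone G, 830.4 in clone E, 2590.9 in the 1-vector clone and 1292.0 in the GFP clone, against 27.8 in parental HT29. The difference was 4.98 in log2, from a clone mean of 10.22 ± 0.83 (SD, n = 4) and a parental value of 5.24. The CD24 shRNA clones fell on both sides of the GFP clone, and the 1-vector clone was highest, with a difference of -1.74 between the 2-vector clones and it. TPPP3 was near the bottom of the scale outside the clones: 3.6 and 0.9 in antibody-treated and untreated Colo357, and 4.4 in antibody-treated HT29.

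FOXJ1, the motile cilia factor, read 348.8 in clone G, 268.4 in clone E, 595.6 in the 1-vector clone and 358.1 in the GFP clone, against 11.7 in parental HT29. The 4 clones lay close together, with a mean log2 value of 8.59 ± 0.47 (SD, n = 4), against 4.44, a difference of 4.15. The GFP clone lay inside the range of the CD24 shRNA clones, which differed from it by 0.09 on average. FOXJ1 stood at the 75.5th to 86.7th percentile in the clones and at the 28.3rd in parental HT29. Treated and untreated Colo357 read 21.5 and 34.2, and treated HT29 6.6.

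**Figure D1:**
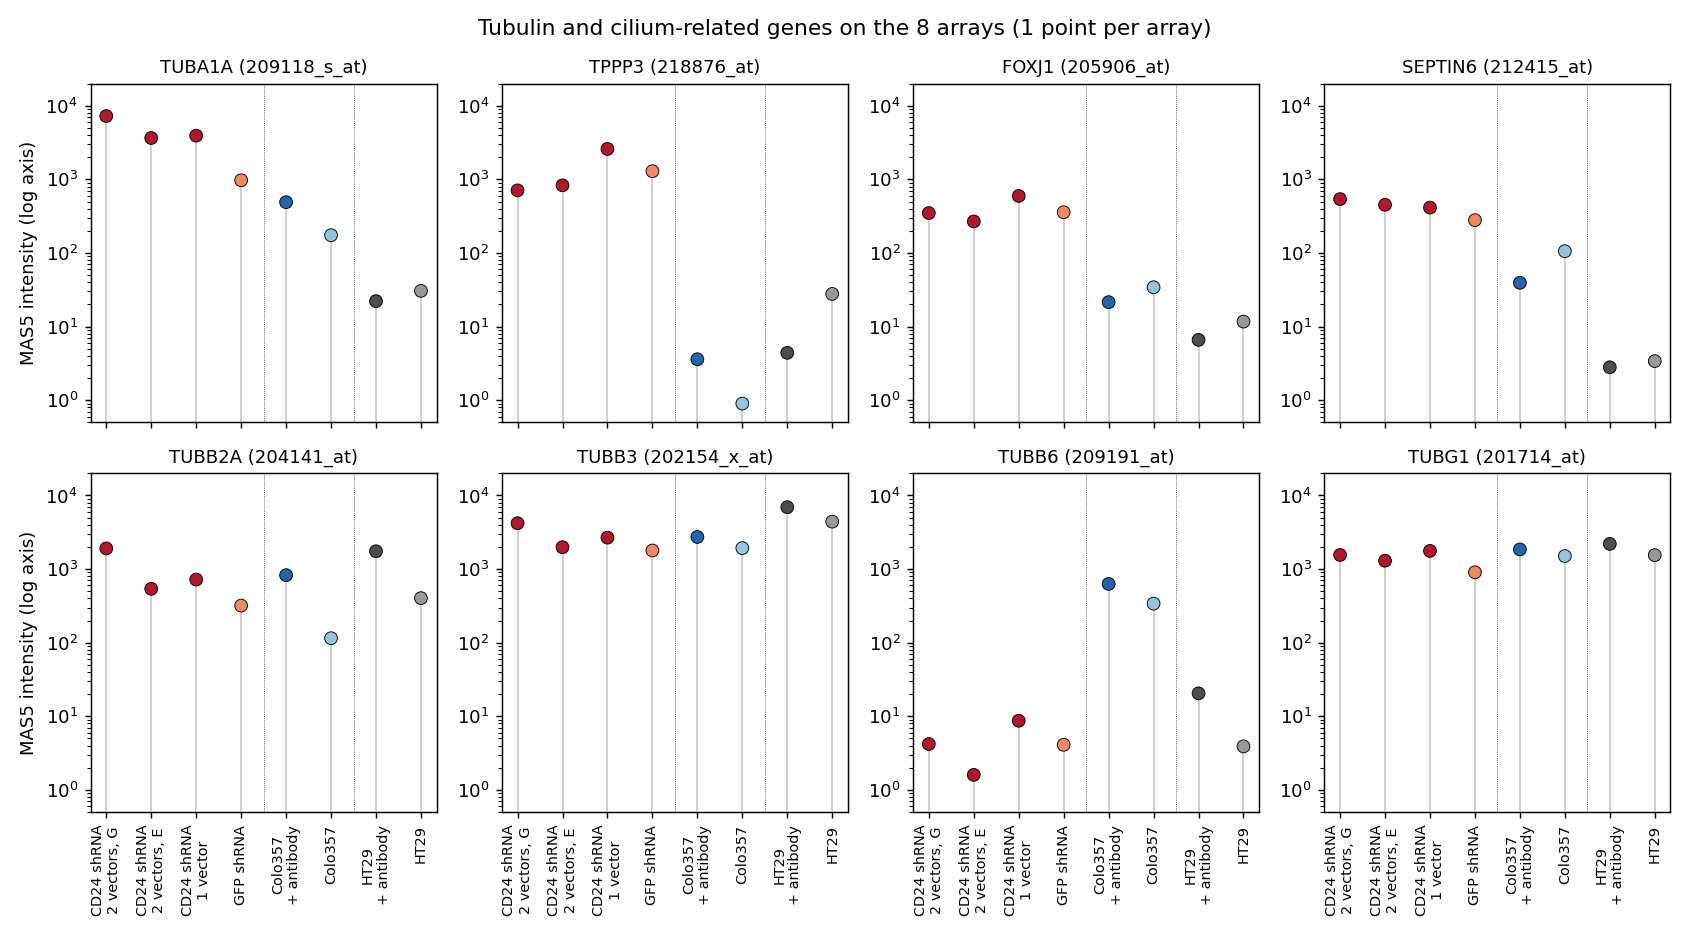
MAS5 intensity (log axis) of the 8 genes on each array, for the probe set that represents the gene, with 1 point per array and arrays grouped as HT29 clones, Colo357 and HT29. TUBA1A, TPPP3, FOXJ1 and SEPTIN6 read 268.4 to 7246.9 in the 4 clones and 3.4 to 30.6 in parental HT29, while TUBB6 reads 628.6 and 339.5 in treated and untreated Colo357 and at most 20.5 elsewhere.

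SEPTIN6 was measured by 4 probe sets, which differed in size but not in side. The brightest read 539.7 in clone G, 451.7 in clone E, 414.0 in the 1-vector clone and 279.6 in the GFP clone, against 3.4 in parental HT29. Its clone mean was 8.71 ± 0.39 (SD, n = 4) in log2, against 3.74, a difference of 4.97. All 4 clones were high and close together, and the 3 CD24 shRNA clones lay above the GFP clone by 0.72 on average.

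The other 3 SEPTIN6 probe sets were dim, at 14.1 to 53.5 in the clones and 6.6 to 10.5 in parental HT29. Their differences were 1.15, 0.90 and 1.08, the last on a set of the _x_at type. In each of these 3 the GFP clone read highest among the clones, while on the brightest it read lowest. With the mean of the 4 probe sets in place of the brightest, the SEPTIN6 difference was 2.03. The gene lies at 119615724 to 119693168 on the X chromosome.

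**Figure D2:**
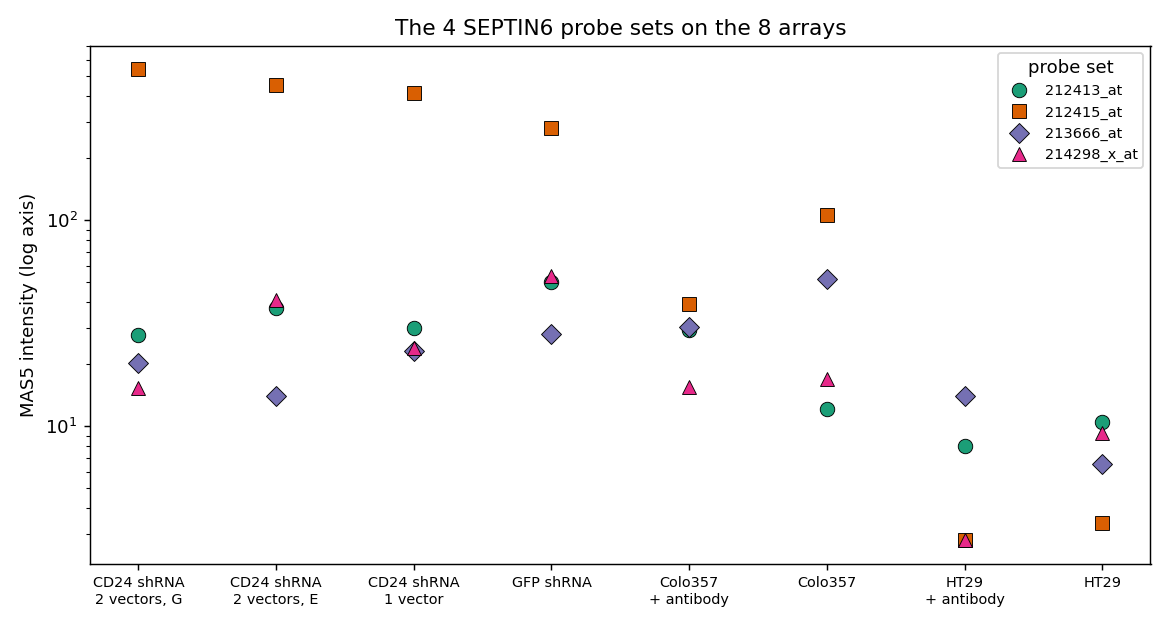
MAS5 intensity (log axis) of the 4 SEPTIN6 probe sets on each of the 8 arrays, 1 symbol per probe set. The brightest set reads 279.6 to 539.7 in the clones and 3.4 in parental HT29, while the other probe sets stay at or below 53.5 on every array.

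In all, 4 of the 7 genes above the intensity filter, TUBA1A, TPPP3, FOXJ1 and SEPTIN6, were at 2-fold or more above parental HT29 in each of the 4 clones, and 0 of 7 were that far below it. Of all 6756 genes, 6.5% were that far above and 1.91% that far below. Nothing is read from the 4 of 7, since the clone values chose the genes. The count was 3 with the mean of each gene's probe sets. It stayed at 4 when any single clone was left out, but leaving out a clone only loosens the rule. Nothing is read from that either. The size of a difference from so dim a parental reading depends on the pseudocount: with 1 and with 50 in place of 10 it was 6.55 and 3.11 for SEPTIN6 and 4.89 and 2.79 for FOXJ1. The GFP clone, which has no shRNA against CD24, was among the 4. All of these differences rest on 1 untreated parental array. In antibody-treated HT29 the same genes read 22.2 (TUBA1A), 4.4 (TPPP3), 6.6 (FOXJ1) and 2.8 (SEPTIN6), below every clone.

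The β- and γ-tubulins did not share this pattern. TUBB2A read 1909.0 in clone G, 539.4 in clone E, 720.4 in the 1-vector clone and 319.0 in the GFP clone, against 403.1 in parental HT29. Only clone G was more than 2-fold from the parental array, and the mean difference was 0.78, or 0.30 without clone G. The part of clone G's RNA controls in its high reading was not tested.

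TUBB3 read 4201.5, 1981.1 and 2674.4 in clones G and E and the 1-vector clone and 1787.9 in the GFP clone, against 4409.2 in parental HT29, on the brighter of its probe sets. Every clone lay below the parental array, with a mean difference of -0.81, and of -1.06 without clone G. The other TUBB3 probe set gave a mean difference of -0.34, with clone G at 4828.6 above the parental 3734.2. Both are _x_at sets, which may take up transcripts of related β-tubulins. Of 9 neuronal markers, 1 or 2 lay above the array median on each clone and 0 on parental HT29. Their summed intensity was 155.6 to 464.7 in the clones and 117.2 in parental HT29. The arrays outside the clones were alike, with 2 markers above the median on treated HT29 and on untreated and treated Colo357. Their sums were 181.1, 317.5 and 500.7, so these counts do not set the clones apart. ENO2 was high in the clones (389.6, 164.7, 287.1 and 82.0 in clones G and E, the 1-vector and the GFP clone, against 17.2 in parental HT29), while STMN2, SYP and NEFM read at most 16.3 in any clone. The part of these markers in the tubulin readings was not tested.

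TUBG1 read 1555.6 in clone G, 1298.7 in clone E, 1767.1 in the 1-vector clone and 905.1 in the GFP clone, against 1546.2 in parental HT29. The clones lay on both sides of the parental array and differed from it by -0.20 on average, less than their SD of 0.42. TUBB6 was near the bottom of the scale in every clone, at 1.6 to 8.7, against 3.9 in parental HT29, and did not pass the filter on these arrays.

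**Figure D3:**
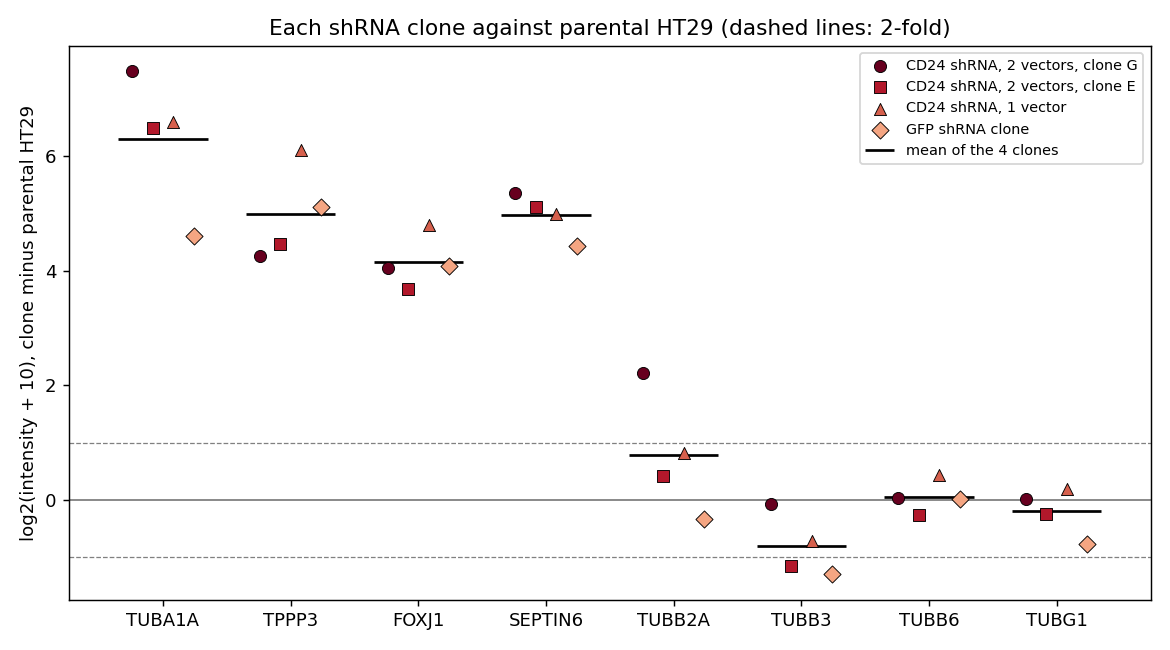
Difference of log2(intensity + 10) between each of the 4 HT29 clones and parental HT29 for the 8 genes, 1 symbol per clone, with a bar at the mean of the 4 clones and dashed lines at 2-fold. The clone means of TUBA1A, SEPTIN6, TPPP3 and FOXJ1 lie at 6.29, 4.97, 4.98 and 4.15, and those of the other 4 genes between -0.81 and 0.78.

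The study's own contrast set the CD24 shRNA clones against both controls, the GFP clone and parental HT29. The 3 clones lay above both controls for TUBA1A, TUBB2A and SEPTIN6 and below both for 0 of the 7 genes, where 20.1% of all genes lay above and 19.8% below. Nothing is read from this count, since the genes were chosen with values of these arrays known. TUBA1A averaged 12.20 ± 0.54 (SD, n = 3) in the CD24 shRNA clones and 7.64 ± 3.25 (SD, n = 2) in the controls, whose spread was the distance between the GFP clone and the parental line. The corresponding values were 9.84 ± 0.95 and 8.53 ± 0.23 for TUBB2A, and 8.89 ± 0.19 and 5.96 ± 3.14 for SEPTIN6. For TPPP3 and FOXJ1 the GFP clone lay within the range of the CD24 shRNA clones.

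In limma, 0.0% of 6756 genes passed adjusted p 0.05 in this contrast, and 19.8% had an unadjusted p under 0.05. None of the 7 genes passed, with limma adjusted p from 0.208 for TUBA1A to 0.998 for TUBB3. For these genes the p-values are a description, since the same arrays were known when the genes were chosen. The differences depended on which control was kept. Against parental HT29 alone they were 6.86 for TUBA1A, 5.15 for SEPTIN6, 4.18 for FOXJ1 and 4.94 for TPPP3. Against the GFP clone alone they were 2.26, 0.72, 0.09 and -0.16 for the same 4 genes. TUBG1 differed by -0.02 from parental HT29 and by 0.75 from the GFP clone.

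Anti-CD24 antibody was compared with no treatment in both lines, and TUBB2A was the only one of the 8 genes to pass the fit over both. It read 826.7 after antibody and 115.0 before in Colo357, and 1746.7 after and 403.1 before in HT29. The treated array was higher in both lines, by 2.74 and 2.09 in log2. Over both lines TUBB2A rose by 2.42 ± 0.34 (SE, n = 2 lines; limma adjusted p = 0.0122), in a fit with 1 residual degree of freedom. In that fit 1.15% of 6787 genes rose and 2.43% fell. TUBB2A was known to pass it when the genes were chosen, and the adjusted p was 0.0975 after quantile normalization, 0.181 with no filter and 0.276 in a fit of all 8 arrays.

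The other tubulins among the 8 genes did not pass. TUBB6 read 628.6 after antibody and 339.5 before in Colo357, and 20.5 after and 3.9 before in HT29, and its difference of 1.00 ± 0.32 (SE) had limma adjusted p = 0.106. TUBB3 (0.58 ± 0.32; adjusted p = 0.312) and TUBG1 (0.40 ± 0.32; adjusted p = 0.486) were higher on the treated array of both lines. The other TUBB3 probe set gave 0.20 ± 0.33 (limma adjusted p = 0.751 with every probe set as a unit). TUBA1A read 490.3 after antibody and 174.5 before in Colo357, but 22.2 after and 30.6 before in HT29, a low reading on both arrays, and its overall difference of 0.55 ± 0.42 had limma adjusted p = 0.461.

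TPPP3, FOXJ1 and SEPTIN6 were too dim for the antibody fit. After antibody the highest readings were 4.4 for TPPP3, 21.5 for FOXJ1 and 39.4 for the brightest SEPTIN6 probe set, below every clone. On the dim SEPTIN6 sets treated Colo357 read 29.4, 30.2 and 15.5, in the range of the clones or above it. The brightest SEPTIN6 set read 39.4 after antibody and 105.8 before in Colo357, a difference of -1.23. The other sets gave 0.83, -0.62 and -0.08, and the mean of the 4 sets -0.27, which is short of 2-fold. Within the lines, TUBB2A and TUBA1A were 2-fold or more higher and SEPTIN6 2-fold or more lower in Colo357, of 6 genes above the filter, where 10.5% of all genes were higher and 12.7% lower. In HT29, TUBB2A was higher and no gene lower, of 3 above the filter, where 5.04% of all genes were higher and 7.31% lower.

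**Figure D4:**
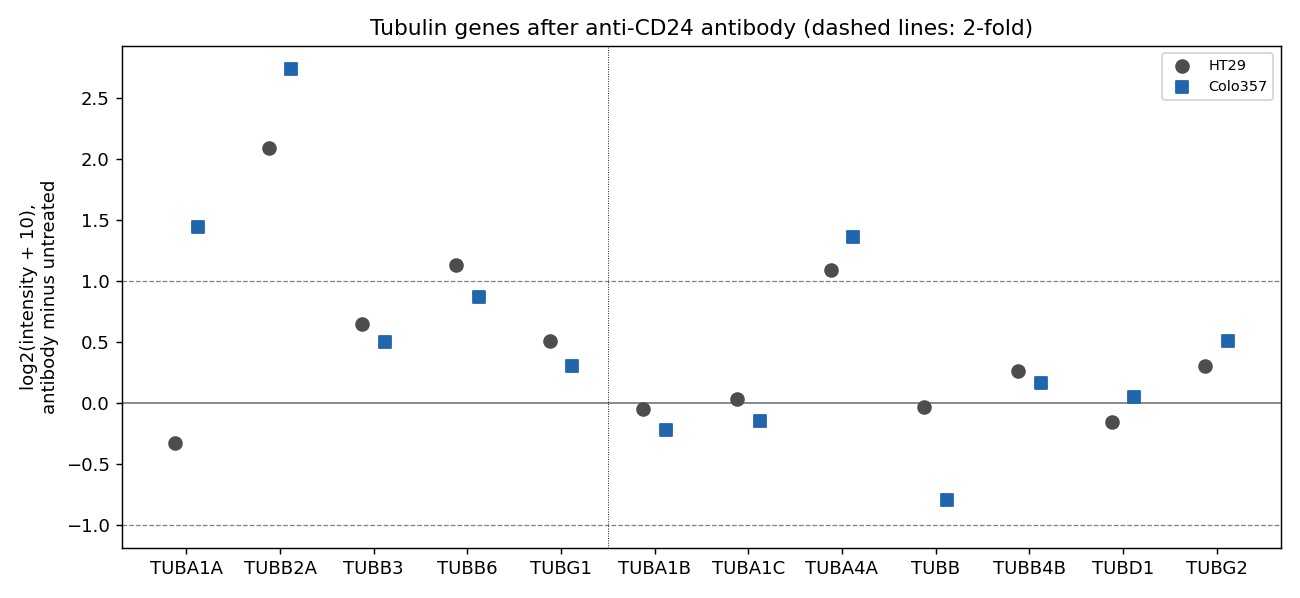
Difference of log2(intensity + 10) between antibody-treated and untreated cells in HT29 (circles) and Colo357 (squares), for the 5 tubulins of the chosen genes (left of the dotted line) and for 7 other tubulin genes. TUBB2A lies at 2.09 and 2.74 and TUBA4A at 1.09 and 1.36 in HT29 and Colo357, and TUBA1B, TUBA1C and TUBB4B lie between -0.22 and 0.26.

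Colo357 and HT29 differed in their β-tubulins. TUBB6 read 339.5 in untreated Colo357 and 3.9 in untreated HT29, a difference of 4.65 (6.12 with a pseudocount of 1 and 2.85 with 50), and the treated arrays, at 628.6 and 20.5, were split in the same way. TUBA1A read 174.5 in Colo357 and 30.6 in HT29, a difference of 2.18, so that Colo357 lay between parental HT29 and the clones. TUBB2A (115.0 in Colo357 and 403.1 in HT29) and TUBB3 (1928.6 in Colo357 and 4409.2 in HT29) were lower in Colo357, with differences of -1.72 and -1.19. The other TUBB3 probe set differed by -0.83, short of 2-fold. Of 5 genes above the filter, 2 were 2-fold or more higher and 2 lower, TUBB3 on its brighter set only. Of all genes, 13.6% were higher and 11.4% lower. TUBG1 differed by -0.04, with 1504.3 in Colo357 and 1546.2 in HT29. SEPTIN6, FOXJ1 and TPPP3 did not pass the filter here. On its brightest set SEPTIN6 read 105.8 in Colo357 and 3.4 in HT29, also between parental HT29 and the clones. Its dim sets read 12.1, 51.7 and 16.9 in Colo357, of which 51.7 lay above every clone on that set. FOXJ1 (34.2 and 11.7) also lay between, and TPPP3 (0.9 and 27.8) lay below parental HT29. This comparison is 1 array against 1, has no test, and shares the untreated HT29 array with the comparisons of the clones and of the antibody in HT29.

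TUBA1A ran, high to low, through clone G, the 1-vector clone, clone E, the GFP clone, treated Colo357, untreated Colo357, untreated HT29 and treated HT29. No array has a replicate of the same line and treatment. The only group with 2 arrays, the 2-vector clones, holds 2 different clonal lines, 0.99 apart in log2. That 1 difference, which includes clone G with its outlying RNA controls, does not measure the spread of the other arrays. The steps from clone E to the GFP clone, from treated to untreated Colo357 and from untreated Colo357 to untreated HT29 were larger than 0.99, and the others were smaller. The order itself was not tested. For TUBB2A the 2-vector clones were 1.80 apart. With 1 array for each line, the order among clone E, the 1-vector clone, the GFP clone and parental HT29 is not resolved.

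The remaining tubulin genes differed little in the clones. Of 17 other tubulin genes listed, 12 had a value and 6 passed the filter, all 6 below parental HT29 and 0 at 2-fold, with a median of -0.21 where all genes had 0.02. TUBA1B, a widely expressed α-tubulin, read 13419.2, 12161.7, 13622.3 and 10632.9 in clones G and E, the 1-vector and the GFP clone, against 13962.1 in parental HT29. TUBA1C differed by -0.03 ± 0.16 (SD, n = 4 clones), TUBB by -0.24 ± 0.13, TUBB4B by -0.25 ± 0.36 and the dim γ-tubulin TUBG2, which was not among those 6, by 0.39 ± 0.32. These probe sets, TUBG2 excepted, are of the _x_at type. After antibody TUBA4A, another α-tubulin, was higher in both lines, at 6771.6 against 2639.6 in Colo357 and 4401.0 against 2061.9 in HT29, and had limma adjusted p = 0.0634.

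**Figure D5:**
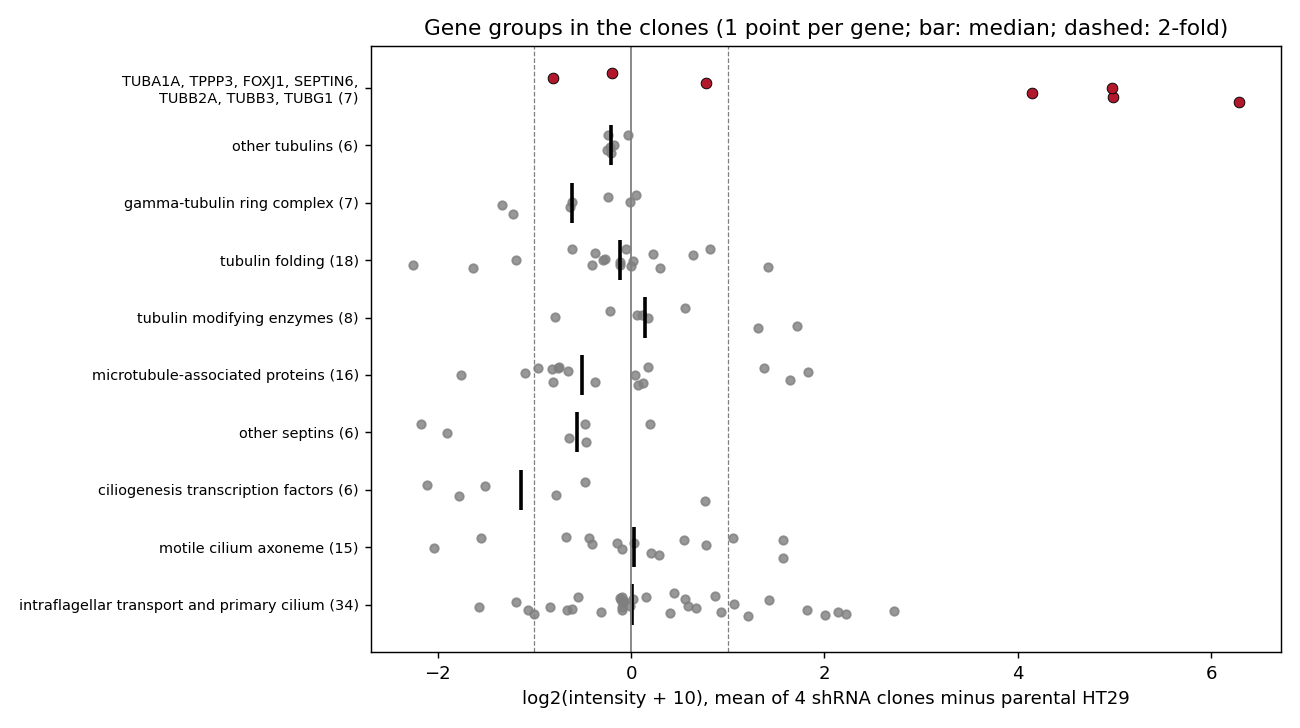
Difference of log2(intensity + 10) between the mean of the 4 HT29 clones and parental HT29, 1 point per gene above the filter, with bars at the medians of the grey groups and dashed lines at 2-fold. Of the 7 chosen genes 4 lie at 4.15 to 6.29, while the medians of the other groups lie between -1.14 and 0.14.

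The genes that build motile cilia were not high as a group in the clones. Of 65 axoneme and motile cilium genes listed, 34 had a value and 15 passed the filter, 8 above and 7 below parental HT29, with a median of 0.03. All 4 clones were 2-fold or more above parental HT29 for 1 of the 15, beside 6.5% of all genes, the dynein light chain DNAL4 (84.6, 80.5, 170.2 and 154.2 in clones G and E, the 1-vector and the GFP clone, against 32.4). On the mean of the clones, CFAP45 (1.58) and CCDC40 (1.06) were also 2-fold or more higher. SPAG1, a dynein assembly factor, differed by -2.03 ± 1.29 (SD, n = 4 clones), with 202.0 in the GFP clone against 245.3 in parental HT29. SPAG16, of the axoneme's central pair, differed by -1.55 ± 0.62, and CCNO, a cyclin of multiciliated cells, by 0.21 ± 0.75. Of the 4 multiciliated markers with a value, FOXJ1 itself was the only one above the array median in any clone. The dynein chains DNAI1 and DNAH9 and the central pair protein SPAG6 read 2.1 to 8.7, 7.6 to 21.4 and 2.2 to 20.6 in the clones, against 1.3, 29.8 and 8.4 in parental HT29.

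Of 17 regulators listed for ciliogenesis, 6 passed the filter: RFX5, GMNN, MYB, E2F4, E2F5 and TFDP1. In the clones 5 of these 6 lay below parental HT29, with a median of -1.14. RFX2, RFX3, MCIDAS and GMNC were not among the 6, so nothing is said of them. MYB read 77.3, 204.6, 104.9 and 139.1 in clones G and E, the 1-vector and the GFP clone, against 569.6 in parental HT29 and 101.8 in antibody-treated HT29. TFDP1, the E2F partner, differed by -1.78 ± 0.36 (SD, n = 4 clones). All 4 clones were 2-fold or more below the parental array for these 2 of the 6 genes, beside 1.91% of all genes. RFX5, an RFX family member known for MHC class II genes, differed by 0.76 and E2F4 by -0.48.

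Primary cilium and intraflagellar transport genes were split evenly, with 17 of 34 above and 17 below parental HT29 and a median of 0.01. All 4 clones were 2-fold or more above the parental array for 6 of the 34, and that far below for 0. They included BBS1, of the complex that sorts cilium membrane proteins, at 308.3, 358.5, 659.2 and 813.3 in clones G and E, the 1-vector and the GFP clone, against 97.6. IFT22 read 53.7, 89.9, 140.4 and 66.8 in the same order, against 4.1. BBIP1 differed by -1.57 ± 0.53 (SD, n = 4 clones) and OFD1, a centriolar satellite protein, by -1.19 ± 1.04. For OFD1 the GFP clone lay above parental HT29 (155.3 against 142.4). The share of 6 in 34 stands beside 6.5% of all genes, and was not tested.

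On the mean of the clones, most listed partners of γ-tubulin and of SEPTIN6 lay below parental HT29, though not in every clone. In the γ-tubulin ring complex list 6 of 7 genes were below parental HT29 (median -0.61), with TUBGCP3 at -1.34 ± 0.75 (SD, n = 4 clones) and TUBGCP5 at -1.22 ± 0.86, while TUBGCP2 was at 0.05 and CDK5RAP2 at -0.01. Among other septins 5 of 6 were below (median -0.56). SEPTIN7, the core partner of septin filaments, read 107.5, 393.1, 75.4 and 651.6 in clones G and E, the 1-vector and the GFP clone, against 1013.3 in parental HT29. SEPTIN10 differed by -1.90 ± 1.66 (SD, n = 4 clones) and SEPTIN2 by -0.47 ± 1.18, both with the GFP clone above parental HT29 (810.2 against 744.5, and 3211.3 against 1698.6) and SEPTIN2 also with clone E above it (1775.7). SEPTIN9 differed by 0.19 ± 0.19. In either list 0 genes were 2-fold or more below parental HT29 in all 4 clones, beside 1.91% of all genes. The median over all genes was 0.02, and the lists were not tested.

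Tubulin folding factors had a median of -0.11, with 12 of 18 below parental HT29. The prefoldin subunit VBP1 (-2.26) was 2-fold or more below it in all 4 clones, CCT6A was at -1.64, and ARL2 and PFDN5 were at 1.41 and 0.82. Tubulin modifying enzymes had a median of 0.14. TTLL1, of the polyglutamylase family, was highest (1.72) and was 2-fold or more above parental HT29 in all 4 clones. The list also had the deacetylases SIRT2 at 1.32 and HDAC6 at 0.56. The acetyltransferase ATAT1 was at -0.79 ± 0.65 (SD, n = 4 clones), with the GFP clone above parental HT29 (149.4 against 134.2), and TTLL5 at -0.22 ± 0.48. Microtubule-associated proteins had a median of -0.51, with MAP1S at 1.83 and MAP7D1 at 1.65 in the clones and KIF2A at -1.76 and MAP7 at -1.10. KIF2A read 56.9 and 45.1 in clone G and the 1-vector clone, and 235.0 and 180.0 in clone E and the GFP clone. Both MAP1S and MAP7D1 were 2-fold or more above parental HT29 in each clone. In the contrast with both controls, 0 genes of these 9 lists passed adjusted p 0.05 in limma, where 0.0% of all genes passed. In the antibody fit 0 of them passed, where 1.15% of all genes rose and 2.43% fell. Nothing is read from these counts.

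Likeness of profile was measured as the root mean square difference between log2 profiles over the 8 arrays after each was centred on its own mean, among 6786 genes. The nearest genes to TUBA1A were SEPTIN6 (1.05) and PADI2 (1.14), and to TPPP3 FOXJ1 (1.40) and CEMIP (1.44). The nearest to FOXJ1 were H2BC21 (0.51) and PADI2 (0.63), and to SEPTIN6 FAM171A1 (0.46) and EEF1A2 (0.56). Nothing is read from nearness among the chosen genes, since they were chosen with their clone values known. PADI2, a peptidylarginine deiminase, read 1335.1, 1033.2, 874.7 and 1053.4 in clones G and E, the 1-vector and the GFP clone, against 37.0 in parental HT29.

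The other profiles had different neighbours. SLC10A3 (0.50) and IL17RB (0.52) were nearest to TUBB2A, SLC16A5 (0.19) and EI24 (0.23) to TUBB3, and the immunoproteasome subunit PSMB9 (0.29) and STOM (0.52) to TUBB6. TUBG1, whose own profile had an SD of 0.38, was nearest to the mitotic ubiquitin-conjugating enzyme UBE2C (0.09) and to COG4 (0.12). The genes that were flat over the arrays have small differences by construction.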

How the data were processed

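The deposited values are MAS5 probe set intensities on a linear scale, per the submitters' processing notes. Neither a software version nor detection calls were given there. The mean after trimming was 250.1 on each of the 8 arrays, so no further scaling was applied. Of the non-control probe sets 19064 had 1 gene symbol, 1043 several and 2108 none in the platform annotation, and 19052 symbols were updated by Entrez ID in the RefSeq gene table (GRCh38.p14). Intensities were converted to log2(intensity + 10). Where a gene had several probe sets annotated to it alone, the one brightest by mean log2 value stood for it. A comparison kept genes whose mean log2 value over the arrays compared exceeded the median over all probe sets other than controls.

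Fits with limma 3.58.1 in R 4.3.3 were made for 2 contrasts. These were the CD24 shRNA clones against both controls (3 residual degrees of freedom) and the antibody over both lines with the line as a block (1 residual degree of freedom). Tests were two-sided, with Benjamini-Hochberg adjustment over all genes above the filter. SE is limma's moderated SE. The fits were tested on simulated data. Other comparisons have no test, and the number of arrays limits their precision. The 8 genes, the 9 gene lists, the marker lists and the naming rule were chosen with earlier results of these data known. The naming rule took all 8 genes, from each list, among genes above the filter over all 8 arrays, the 2 highest and 2 lowest in the clones against parental HT29 and any that passed the antibody fit, and for each of the 8 genes the 2 of most like profile; TUBA1B, TUBA4A, TTLL1, CFAP45, CCDC40 and the markers were named after their values were seen. Alternatives were other pseudocounts, quantile normalization, the mean of probe sets, no _x_at sets, no filter and every probe set as a unit. Each array of the CD24 shRNA contrast, and each clone in the comparison of 4 clones with parental HT29, was also left out in turn. No array was left out of the antibody fit.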

Additional observations from a re-analysis of the deposited data

Results flagged for a closer look

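Antibody treatment went with opposite signs in the lines for 2 of the 8 genes, and these differences were not tested. TUBA1A differed by 1.44 in Colo357 and -0.33 in HT29 on the log2 scale, so that the difference between the lines was 1.77. TPPP3 differed by 0.32 in Colo357 and -1.39 in HT29, a difference between the lines of 1.71, from readings of 3.6 after and 0.9 before in Colo357 and 4.4 after and 27.8 before in HT29, all below the array median. Each value is 1 array against 1.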

How the results depend on the processing

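The antibody fit paired treated and untreated arrays by cell line, with 1 of each per line. The labels give no replicate numbers that would allow another pairing. The antibody fit depended most on the processing. Its 78 higher and 165 lower genes became 49 and 86 with a pseudocount of 1, 32 and 36 when probe sets were averaged, 290 and 598 with every probe set as a unit, and 0 and 0 under quantile normalization, without the filter and in the fit of all 8 arrays. Lower genes numbered 108 without _x_at sets. A filter on linear means, added after seeing the data, gave 12 and 17. In the CD24 shRNA contrast, leaving out 1 array gave 0 to 72 higher and 0 to 578 lower genes, where all 5 arrays gave 0: 72 and 13 without the GFP clone, 9 and 578 without clone E. There the TPPP3 difference ranged between -0.16, without parental HT29, and 4.94, without the GFP clone.

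For the 4 clones against parental HT29, genes higher in all clones numbered 243 with a pseudocount of 50 (439 with 10), and 462 to 560 with 1 clone left out. Lower genes numbered 210 without the filter (129 with it) and 140 to 320 with 1 clone left out, the 320 without the GFP clone. Without the filter, Colo357 against HT29 gave 1698 higher and 1168 lower genes, the antibody in HT29 776 and 781, and higher genes in Colo357 1189. A pseudocount of 50 gave 200 and 253 for the antibody in HT29. The cause was not tested. Over 250 alternative values of single genes, 11 with no test were classed as moved. Some of the 11 are from comparisons of 1 array against 1, which have no spread. A further 3 lost the threshold, all for TUBB2A after antibody. Another 4 gained it, all in the CD24 shRNA contrast without the GFP clone, and 1 reversed.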
